A study of Mus musculus with 40 samples.

Results

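Heat shock proteins and chaperones are the proteins that fold, hold, transport and disassemble other proteins. Here they were taken as every transcript in the table whose mouse symbol began with Hsp, Dnaj or Bag, was a Cct subunit from 2 to 8, or was Tcp1, Canx or Calr. The rule found 58 transcripts of 53 genes, among 6831 transcripts of 5849 genes in all. The annotation holds 93 protein-coding genes with such a symbol, and 40 of them had no transcript in the table, which held abundant transcripts only. Hspa1a and Hspa1b, the strongly heat-inducible HSP70 genes, the small heat shock proteins Hspb1, Hspb6 and Hspb8, the BAG protein Bag3 and the J-domain genes Dnajb2 and Dnajb5 were among those 40 and were not analysed here.

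The 40 libraries came from cortex of male C57BL/6 mice aged 12 weeks, for which the methods give the substrain J. They form 4 groups of 10, sham and HF-HI mice given saline and sham and HF-HI mice given memantine. HF-HI is high-frequency head impact, a series of closed-head impacts given in daily sessions, and sham mice were anaesthetised as the HF-HI mice were but not struck. Memantine, which blocks NMDA-type glutamate receptors, or saline was injected 1 h ahead of each session, and tissue was taken 24 h after the last. Summed reads ran from 13322404 to 17529644 per library. Values are normalised read counts, which are reads divided by the library's size factor, and a change is the log2 ratio of these counts unless another scale is named. A transcript is said to have risen or fallen where its unadjusted limma p-value was under 0.05, a lenient threshold. The methods describe shared cages and random assignment. The labels do not say which animals shared a cage or how a group was handled, so p-values measure the spread between these libraries. The RNA came from whole tissue, in which fewer cells of a type and less RNA per cell cannot be told apart.

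Chaperones work in linked systems. HSP70 proteins grip exposed stretches of unfolded chains, J-domain proteins bring the chains and start the ATP cycle, and nucleotide exchange factors such as the HSP110 and BAG proteins reset it. HSP90 proteins finish kinases and receptors, and the CCT ring, whose subunits are Tcp1 and Cct2 to Cct8, encloses actin and tubulin while they fold. The endoplasmic reticulum (ER) has its own set, made of the HSP70 protein Hspa5 (BiP), the HSP90 protein Hsp90b1 (GRP94), the J-domain proteins Dnajb9, Dnajb11, Dnajc3 and Dnajc10, and the sugar-binding chaperones calreticulin (Calr) and calnexin (Canx), while Hspa9, Hspd1 and Hspe1 serve the mitochondrial matrix. In neurons the J-domain proteins Dnajc5 (cysteine string protein) and Dnajc6 (auxilin) act with Hspa8 at the synapse, the former on vesicle release proteins and the latter in stripping clathrin from vesicles.

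Many chaperone genes carry known control sequences in front of them, and these are shown because the ER chaperones that carry one are described together below. The ER stress element, bound by ATF6 with NF-Y, was searched on both strands as CCAAT followed after 9 bases by CCACG in the 250 bases before each RefSeq start site (GRCm38.p6). Of the 53 genes, 42 had an entry, with 57 promoters. The element was in 5 of the 57 (8.77%), those of Hspa5, Hsp90b1, Calr, Canx and Dnajc3, against 0.113% of all 32851 promoters. The 5 genes all encode ER chaperones. The stretches below are on the gene's strand with the letters of the element in capitals.
Hspa5 (chr2:34772010-34772058, plus strand): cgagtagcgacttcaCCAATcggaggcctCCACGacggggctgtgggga
Hsp90b1 (chr10:86705623-86705671, minus strand): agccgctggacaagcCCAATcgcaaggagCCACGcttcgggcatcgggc
Hsp90b1 (chr10:86705518-86705566, minus strand): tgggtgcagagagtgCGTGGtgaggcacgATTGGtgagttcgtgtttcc
Calr (chr8:84847060-84847108, minus strand): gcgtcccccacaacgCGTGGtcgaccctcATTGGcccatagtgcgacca
Canx (chr11:50325785-50325833, minus strand): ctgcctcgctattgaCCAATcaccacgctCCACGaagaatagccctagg
Dnajc3 (chr14:118937812-118937860, plus strand): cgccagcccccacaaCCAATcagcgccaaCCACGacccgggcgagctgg
In Calr and in the nearer of the 2 Hsp90b1 matches the element reads on the other strand, so it appears as CGTGG and ATTGG. The matches lay from 47 bases before the start site in Hspa5 to 212 bases before it in Hsp90b1.

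The heat shock element, the site of the heat shock factor HSF1, was searched as GAANNTTC or TTCNNGAA, which read the same on both strands and may overlap each other. It was in 13 of the 57 promoters (22.8%), belonging to 11 genes, against 12.8% of all promoters and 9.17% of those of genes in the table. The 11 genes were Cct2, Cct5, Dnaja1, Dnaja4, Dnajb4, Dnajb6, Dnajc10, Dnajc27, Hspd1, Hspe1 and Hsph1. Hspd1 and Hspe1, which encode both parts of the mitochondrial chaperonin, lie head to head and share their stretch.
Hsph1 (chr5:149636347-149636384, minus strand): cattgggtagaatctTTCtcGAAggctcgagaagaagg
Hspe1 (chr1:55088044-55088091, plus strand): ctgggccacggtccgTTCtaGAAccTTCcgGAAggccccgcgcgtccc
Dnaja1 (chr4:40722329-40722366, plus strand): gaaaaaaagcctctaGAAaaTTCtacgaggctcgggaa
A match is a run of letters and was not tested as a binding site. Hspa8, Hsp90aa1, Hsp90ab1, Hspa9 and Dnajc5 were among the 11 genes with no promoter entry.

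Levels differed widely between chaperone genes. Per kilobase of transcript, which allows genes to be compared, Hspa8, the constitutive HSP70 of the cytosol, was highest in saline sham cortex at 14060 ± 952 normalised counts per kb (mean ± SD, n = 10). The cytosolic HSP90 genes Hsp90ab1 and Hsp90aa1 came next at 7231 ± 230 and 6049 ± 416 counts per kb, and together with Hspa8 they made up 41.7% of the summed level of the 52 genes with a length. The ER chaperones Hsp90b1, Calr and Hspa5 followed at 2409 ± 180, 2244 ± 177 and 2070 ± 211 counts per kb. Their ranges over the libraries overlapped, and the differences between these genes were not tested. Dnajc6 at 1641 ± 63.9 counts per kb was the highest J-domain gene. The CCT subunits with a length ran from 601 ± 32.7 counts per kb for Cct4 to 1301 ± 38.5 for Tcp1. Dnajb14, a J-domain protein of the ER membrane, was lowest at 83.4 ± 3.76 counts per kb, against a median of 740 over the 52 genes. Its transcript has 9477 bases. With no mean count under 549 in the table, short transcripts could not reach so low a level per kb. Genes and transcripts absent from the table are not in this ranking.

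**Figure D1:**
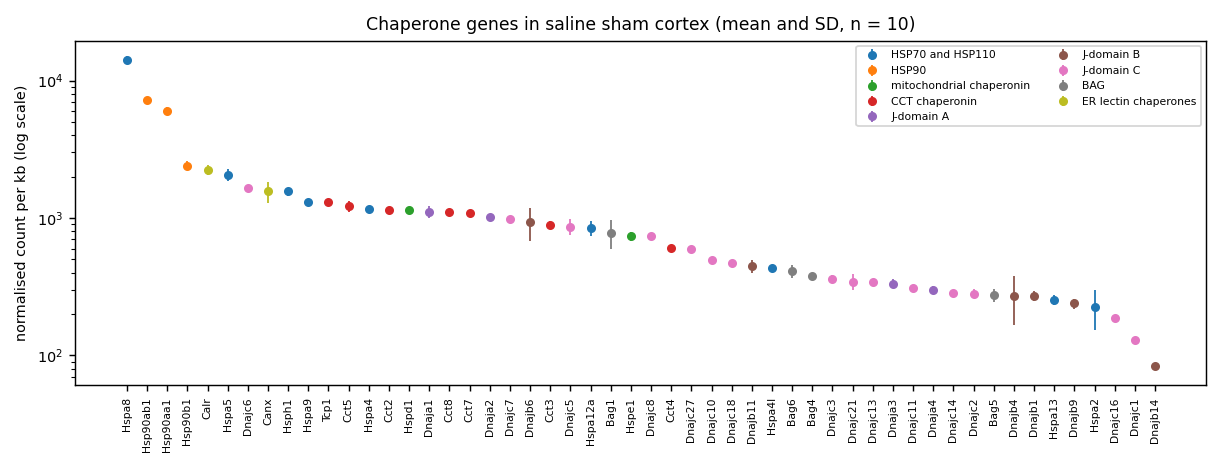
Level of each of 52 chaperone genes in saline sham cortex, in normalised counts per kb of transcript on a log scale, ordered from highest to lowest and coloured by class. Points are means and bars are SD over 10 libraries. Hspa8 stands highest at 14060 and Dnajb14 lowest at 83.4.

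Most chaperone transcripts varied little between libraries of a group. The coefficient of variation within groups had a median of 6.36% over the 58 transcripts, against 7.92% over all transcripts, and was lowest for the membrane J-domain gene Dnajc18 at 2.87%. It was over 20% for 9 of the 58 transcripts (15.5%, against 20% of all transcripts). These were the 3 Canx transcripts, Dnajc5 NM_001271584 and NM_016775, Dnajb4, Dnajb6, Hspa2 and Bag1, whose group differences therefore carried wide errors.

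The question of what impact changed was asked in the saline groups first. Of the 58 transcripts, 6 passed the threshold (10.3%), 2 higher and 4 lower in saline HF-HI, where 9.53% of all 6831 transcripts passed and 4.95% were lower. None of the 58 had an adjusted p-value under 0.1 (smallest 0.326), which 0.205% of all transcripts had, so the number that passed was near the background. The median change was 0.00 over both the chaperones and all transcripts. The 4 that fell were Hspa5 NM_001163434, Calr, Hsph1 and Hspa4, and the 2 that rose were Dnajc6 NM_001164585 and Dnajc21. By class, 3 of 10 HSP70 and HSP110 transcripts fell and 1 of 4 transcripts of the ER lectins fell, while 2 of 17 J-domain C transcripts rose. No transcript of the HSP90, CCT, mitochondrial chaperonin, J-domain A, J-domain B or BAG classes passed.

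Hspa5, the ER member of the HSP70 family and its main sensor of unfolded chains (chr2:34772090-34776529, mm10), had the smallest p-value. It had 2 transcripts in the table. NM_001163434 ran from 2224 to 3616 normalised counts in saline sham (median 3153) and from 1912 to 3072 in saline HF-HI (median 2535). The groups overlapped, and 9 of 10 saline HF-HI libraries were below the saline sham mean. It fell from 3026 ± 506 to 2437 ± 352 (means with SD over 10 libraries). The log2 change was -0.31 ± 0.11 (SE), with p = 0.00635, an adjusted p of 0.326 and a permutation p of 0.0091. NM_022310 went from 2383 ± 455 to 2277 ± 246 and did not pass. The annotation gives a single structure for both accessions, so how they differ is not known here, and their sum was also compared.

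Summed over its transcripts, Hspa5 ran from 4580 to 6536 normalised counts in saline sham (median 5409) and from 4397 to 5399 in saline HF-HI (median 4698). All 10 saline HF-HI libraries were below the saline sham mean, although the groups overlapped. The sum fell from 5409 ± 551 to 4715 ± 291, a change of -12.6% (95% interval -19.4% to -5.15%), with p = 0.0019, an adjusted p of 0.189 and a permutation p of 0.00182. With counts summed by gene, 6 of 53 chaperone genes passed in this comparison (11.3%), against 10.7% of all 5849 genes.

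Calr, the soluble lectin chaperone of the ER lumen and a calcium store (chr8:84842088-84846931), ran from 4431 to 5660 normalised counts in saline sham (median 4820) and from 4272 to 5371 in saline HF-HI (median 4438). It fell from 4901 ± 385 to 4594 ± 332, a log2 change of -0.09 ± 0.04 (p = 0.0372, adjusted p = 0.49), with 8 of 10 saline HF-HI libraries below the saline sham mean. The permutation p was 0.068, and the call was lost without any 1 of 9 libraries, with the highest p of 0.104 without saline sham replicate 3. The other ER chaperones did not pass. Hsp90b1 went from 6804 ± 508 to 6462 ± 546 normalised counts (-5.08%, 95% interval -11.3% to 1.55%), Dnajc3, a J-domain inhibitor of the kinase PERK, from 1844 ± 125 to 1769 ± 58.3 (-3.89%, interval -9.21% to 1.74%), Dnajb11, a BiP partner, from 860 ± 92.8 to 836 ± 42.7, and Dnajb9, another BiP partner, from 588 ± 49.4 to 593 ± 31.5.

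Among the cytosolic members of the family, Hsph1 and Hspa4 are HSP110 proteins that act as nucleotide exchange factors for HSP70. Hsph1 (chr5:149616843-149636498) ran from 5242 to 6527 normalised counts in saline sham and from 5077 to 6224 in saline HF-HI. It fell from 5930 ± 393 to 5591 ± 379, a log2 change of -0.09 ± 0.04 (p = 0.0452, adjusted p = 0.508, permutation p = 0.0667). Hspa4 (chr11:53259814-53300479) ran from 4936 to 5689 in saline sham and from 4814 to 5417 in saline HF-HI. It fell from 5383 ± 238 to 5184 ± 189, a log2 change of -0.05 ± 0.03 (p = 0.046, adjusted p = 0.511, permutation p = 0.0549). The groups overlapped for both genes. The Hsph1 call was lost without any 1 of 12 libraries (highest p 0.102, without saline sham replicate 3) and the Hspa4 call without any 1 of 13 (highest p 0.111, without saline HF-HI replicate 8). The Hspa4 call was also lost with quantile normalisation, with median centring and with only the groups compared. Hspa8 itself went from 33658 ± 2279 to 32761 ± 1083 normalised counts and did not pass (-2.51%, 95% interval -6.95% to 2.14%), and neither did the mitochondrial Hspa9 (2.49%, interval -2.28% to 7.49%).

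Both transcripts that rose encode J-domain C proteins. Dnajc6 NM_001164585, a transcript of auxilin (chr4:101496648-101642799), ran from 5358 to 6995 normalised counts in saline sham (median 6319) and from 6164 to 7929 in saline HF-HI (median 6783). It rose from 6212 ± 510 to 6873 ± 487, a log2 change of 0.15 ± 0.05 (p = 0.0106, adjusted p = 0.374, permutation p = 0.00644), and 9 of 10 saline HF-HI libraries were above the saline sham mean. Dnajc21, a cochaperone of ribosome assembly (chr15:10446763-10470568), ran from 575 to 856 in saline sham (median 700) and from 713 to 961 in saline HF-HI (median 786). It rose from 709 ± 97.7 to 813 ± 77.9, a log2 change of 0.20 ± 0.07 (p = 0.0109, adjusted p = 0.374, permutation p = 0.0174), with 10 of 10 saline HF-HI libraries above the saline sham mean.

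**Figure D2:**
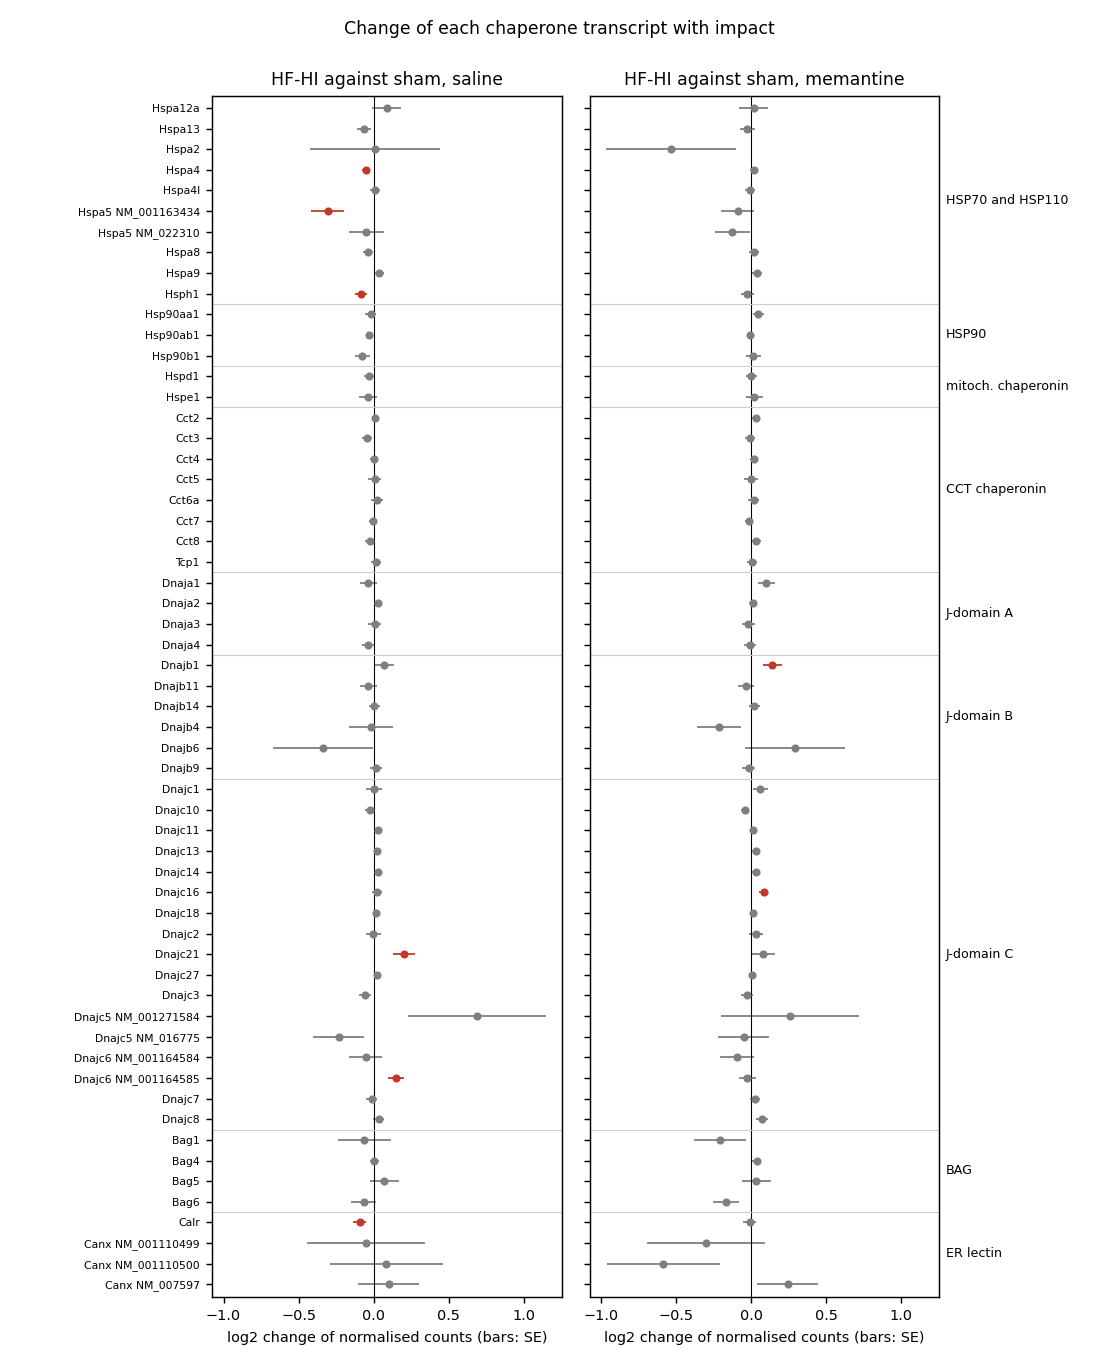
Log2 change of the normalised count of each of the 58 chaperone transcripts with impact, under saline on the left and memantine on the right, on the same axis and grouped by class. Points are estimates from 10 libraries per group, bars are SE, and red marks an unadjusted limma p-value under 0.05. The 6 red points under saline and the 2 under memantine are in different transcripts, and the widest bars belong to transcripts of Hspa2, Dnajb6, Dnajc5 and Canx.

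Markers of another region moved with the saline comparison. Of 18 transcripts of 12 striatal marker genes, 8 fell in saline HF-HI and none rose, with a median log2 change of -0.19. Their summed level under saline ran from 39350 to 63882 normalised counts in sham and from 40228 to 54605 in HF-HI libraries. Under memantine it ran from 43347 to 64646 in sham and from 37502 to 58496 in HF-HI libraries, and 0 of the 18 passed under memantine. The mean of these markers was then added as a covariate. Of all 6831 transcripts, 651 passed in saline without it and 388 with it. With the covariate, 2 of the 58 chaperone transcripts passed in saline, and both had fallen without it. These were Hspa5 NM_001163434 (p = 0.00948) and Hspa4 (p = 0.0214), while Dnajc6 NM_001164585 (p = 0.065), Dnajc21 (p = 0.113), Calr (p = 0.102) and Hsph1 (p = 0.0547) did not pass. On the deposited scale the covariate moved the change of Dnajc6 NM_001164585 from 0.11 to 0.08, of Dnajc21 from 0.07 to 0.04, and of Calr from -0.06 to -0.05, and left that of Hsph1 at -0.06. The covariate left the summed Hspa5 change at -0.19 (log2, p = 0.00553). It moved the summed Dnajc6 change from 0.09 to 0.07 (log2), which still passed (p = 0.0212, adjusted p = 0.697). The part of dissection in any of the chaperone calls was not tested. Markers behind the covariate themselves fell with impact, so it cannot tell dissection from an effect of impact on them.

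The neighbours of Hspa5 in the ER were followed with a list of 31 genes for ER folding and the unfolded protein response, of which 18 had 20 transcripts in the table. In saline HF-HI, 8 of the 20 passed (40%, against 9.53% of all transcripts), 6 lower and 2 higher. Those that fell were Hyou1, an ER nucleotide exchange factor for BiP, the disulfide isomerases Pdia4 and Pdia6, Manf, a BiP-binding secreted protein, Uggt1, which returns misfolded glycoproteins to calnexin and calreticulin, and Edem3, which marks glycoproteins for disposal. Pdia4 fell from a median of 1108 to a median of 1010.3 normalised counts (log2 change -0.15 ± 0.05, p = 0.00258), Pdia6 from a mean of 1697 ± 137 to 1533 ± 111 (-0.15 ± 0.05, p = 0.00401), Manf from 657 ± 52.6 to 599 ± 33.9 (-0.13 ± 0.05, p = 0.0205) and Hyou1 from 2338 ± 110 to 2197 ± 140 (-0.09 ± 0.04, p = 0.0142). None of the 20 had an adjusted p-value under 0.1. Atf4, a transcription factor of the stress response, and Os9 NM_177614, a lectin of ER disposal, rose by 0.07 and 0.20 on the log2 scale. The median change over the 20 was -0.03. With the striatal covariate 4 of the 20 passed, all lower, where 388 of all 6831 transcripts passed. Leaving out 1 library at a time gave from 5 to 8 of the 20.

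**Figure D3:**
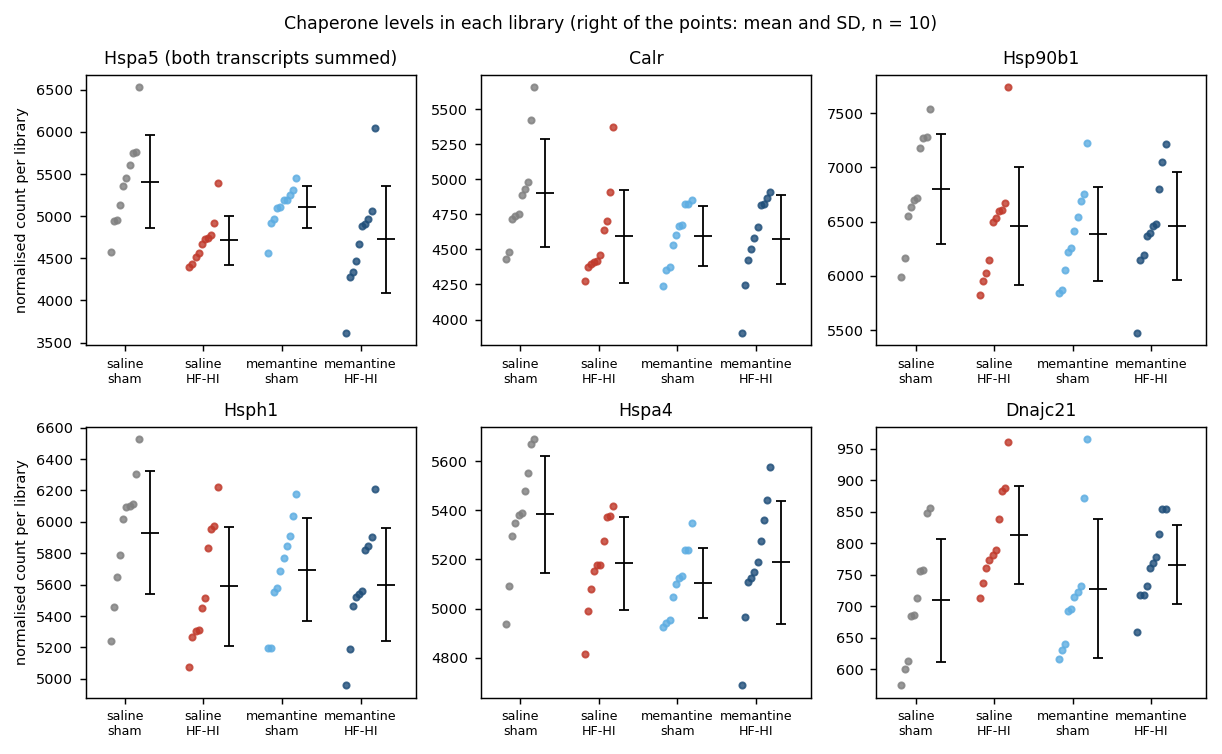
Normalised counts in each library for Hspa5 (both transcripts summed), Calr, Hsp90b1, Hsph1, Hspa4 and Dnajc21 in the 4 groups. Each point is 1 library, in order of level, and the bar to the right gives the mean and SD (n = 10). The saline sham libraries of Hspa5 reach 6536 with a mean of 5409, the saline HF-HI libraries have a mean of 4715, and all groups overlap.

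Under memantine fewer chaperone transcripts passed. In memantine HF-HI against memantine sham, 2 of 58 passed (3.45%), against 4.61% of all transcripts, and both rose. None had an adjusted p-value under 0.1 (smallest 0.967), against 0.0146% of all transcripts. Dnajc16, a J-domain protein of the ER membrane (chr4:141761998-141790644), ran from 1040 to 1155 normalised counts in memantine sham (median 1068) and from 1098 to 1226 in memantine HF-HI (median 1141). It rose from 1088 ± 43.9 to 1153 ± 45.1, a log2 change of 0.08 ± 0.03 (p = 0.011, permutation p = 0.00522), with 10 of 10 libraries above the memantine sham mean. Dnajb1, the main heat-inducible J-domain partner of HSP70 (chr8:83608175-83612653), ran from 666 to 957 and from 741 to 1067. It rose from 808 ± 94.2 to 892 ± 109, a log2 change of 0.14 ± 0.06 (p = 0.0324, permutation p = 0.0826), a call lost without any 1 of 6 libraries (highest p 0.0851, without memantine HF-HI replicate 5). The lowest p among HSP90 and CCT transcripts was 0.187 for Hsp90aa1.

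The Hspa5 sum also fell under memantine, from 5107 ± 247 to 4726 ± 635 normalised counts, a change of -8.11% (95% interval -15.3% to -0.303%) with p = 0.0425 and a permutation p of 0.0738. The memantine sham libraries ran from 4567 to 5455 (median 5155) and the memantine HF-HI libraries from 3613 to 6051 (median 4782), and 9 of 10 of the latter were below the memantine sham mean. The call was lost in 12 of the 40 fits that each left out 1 library, with the highest p of 0.136 without memantine HF-HI replicate 7, and with quantile normalisation (p = 0.0658). In the list of ER folding genes 1 of 20 transcripts passed under memantine, Hyou1, which fell by 0.09 on the log2 scale (p = 0.0129).

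Taking impact over both drug arms, 4 of 58 transcripts passed (6.90%), against 9.66% of all transcripts and 5.05% lower. Dnajc21, Dnajc16 and Dnajb1 rose by 0.14 ± 0.05, 0.05 ± 0.02 and 0.11 ± 0.05 on the log2 scale, and Hspa5 NM_001163434 fell by 0.20 ± 0.08. With the striatal covariate the calls of Dnajc21, Dnajc16 and Dnajb1 were lost (limma p = 0.103, 0.0607 and 0.0612), and that of Hspa5 NM_001163434 was kept. None had an adjusted p-value under 0.1, against 0.425% of all transcripts. Summed by gene, 4 of 53 genes passed (7.55%, against 10.9% of all genes), and Hspa5 had an adjusted p-value under 0.1, as did 0.889% of all genes. Its sum fell by 0.16 ± 0.04 on the log2 scale (-10.4%, 95% interval -15.4% to -5.05%), with p = 0.000445 and an adjusted limma p of 0.0898. Without single libraries its unadjusted p ran from 2.41e-05 to 0.000864, and the adjusted p stayed under 0.1 in 22 of 40 such fits, running from 0.014 to 0.14. With the striatal covariate the adjusted p was 0.236 and the unadjusted p 0.00141. In the list of ER folding genes 8 of 20 passed (40%), 7 lower and 1 higher. Hyou1 (-0.09 ± 0.02, p = 0.00076), Pdia4 (-0.10 ± 0.03, p = 0.00242) and Pdia6 (-0.11 ± 0.03, p = 0.00246) had the smallest p-values, Xbp1, a transcription factor of the unfolded protein response, fell by 0.11 ± 0.05, and Edem1 rose. With the striatal covariate 8 passed, all lower, where 459 of all 6831 transcripts passed.

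The genes that carry an ER stress element can be read beside these values. Of Hspa5, Hsp90b1, Calr, Canx and Dnajc3, summed by gene, Hspa5 and Calr fell in saline HF-HI, and 4 of the 5 had a negative change, with a median log2 change of -0.08 against 0.00 over all genes. Of the 11 genes with a heat shock element, Hsph1 fell, 8 had a negative change and the median was -0.03. Of all genes, 10.7% passed in this comparison. With impact under memantine, Hspa5 fell among the 5 genes and none of the 11 passed (4.38% of all genes), and the medians were -0.01 and 0.00. Between the sham groups, with memantine and no impact, Calr fell among the 5 and Dnaja1 among the 11 (7.9% of all genes). There 4 of the 5 and 9 of the 11 had a negative change, with medians of -0.08 and -0.04. The saline impact and the sham comparison share the saline sham libraries. No list was tested as a set, so these are counts of calls and medians only.

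Whether the response to impact differed with the drug was asked with the interaction. It passed for 2 of 58 transcripts (3.45%, against 3.73% of all transcripts), with none under an adjusted p of 0.1, as for 0.0% of all transcripts. These were Dnajc6 NM_001164585 (p = 0.0336) and Hspa4 (p = 0.0465), both with an adjusted p of 0.999. The Dnajc6 call was lost without any 1 of 7 libraries (highest p 0.0636, without memantine HF-HI replicate 9). Summed over its 2 transcripts, Dnajc6 went from 8473 ± 330 normalised counts in sham to 9039 ± 293 in HF-HI under saline, and from 8872 ± 280 to 8637 ± 518 under memantine. The sum rose with impact under saline by 6.71% (95% interval 2.59% to 11%, p = 0.0019, permutation p = 0.00038), with 10 of 10 libraries above the saline sham mean. Under memantine the change was -2.77% (interval -6.52% to 1.14%, p = 0.158). Between the sham groups the sum was higher with memantine by 4.74% (interval 0.692% to 8.95%, p = 0.0225, permutation p = 0.00526). Between the HF-HI groups its change with memantine was -4.56% (interval -8.25% to -0.724%, p = 0.0215, permutation p = 0.0341). The interaction of the sum was -0.13 ± 0.04 on the log2 scale (p = 0.00169, adjusted p = 0.999), and its p stayed between 0.000782 and 0.00322 without single libraries. Summed by gene, 2 of 53 genes passed the interaction (3.77%, against 3.59% of all genes). The Hspa5 sum had an interaction of 0.07 ± 0.08 (p = 0.388), so a difference between its responses was not detectable at this spread. The Hspa4 interaction was 0.08 ± 0.04, and it was lost in 23 of 40 fits that left out 1 library, with a p of 0.0831 without memantine HF-HI replicate 10.

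Memantine was next compared with saline in the sham groups. This comparison shares the saline sham libraries with the saline impact comparison. Of 58 transcripts, 7 passed (12.1%), 6 lower and 1 higher, where 7.51% of all transcripts passed and 3.84% were lower. None had an adjusted p under 0.1 (smallest 0.511), against 0.0293% of all transcripts. Of the 58, 44 had a negative change, with a median of -0.04 over the 58 and 0.00 over all transcripts. Those that fell were Hspa4, Hspa8, Dnaja1, Dnajc2, Cct4 and Calr.

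Hspa4 had the smallest p-value and fell from 5383 ± 238 normalised counts in saline sham to 5105 ± 142 in memantine sham, which ran from 4926 to 5348, with 10 of 10 libraries below the saline sham mean (log2 change -0.08 ± 0.03, p = 0.00636, permutation p = 0.00696). Dnajc2, a J-domain protein of the ribosome that receives new chains (chr5:21757266-21785264), ran from 539 to 694 in saline sham and from 510 to 599 in memantine sham. It fell from 600 ± 45.5 to 550 ± 26.3, a log2 change of -0.12 ± 0.05 (p = 0.0117, permutation p = 0.00464). Dnaja1, a cytosolic J-domain partner of Hspa8 (chr4:40722468-40734965), fell from 3758 ± 357 to 3437 ± 277, a log2 change of -0.13 ± 0.06 (p = 0.0273, permutation p = 0.04). Hspa8 (chr9:40801276-40805202) ran from 30500.0 to 37839.6 in saline sham and from 30085.5 to 35225 in memantine sham, and fell from 33658 ± 2279 to 32072 ± 1397 (log2 change -0.07 ± 0.03, p = 0.0471, permutation p = 0.0799). Its call was lost without any 1 of 19 libraries, with a highest p of 0.131 without saline sham replicate 4. Calr fell to 4595 ± 216 (p = 0.0408), a call lost without any 1 of 8 libraries (highest p 0.113, without saline sham replicate 3). The Dnaja1 call was lost without any 1 of 4 (highest p 0.064, without saline sham replicate 4). The Dnajc6 NM_001164585 transcript rose from 6212 ± 510 to 6794 ± 518 (0.13 ± 0.05, p = 0.023, permutation p = 0.0249), with a p of 0.0576 without saline sham replicate 1.

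The drug comparisons were next read for the CCT chaperonin. All 8 subunits had a negative change in memantine sham against saline sham, from -0.06 for Cct8 to -0.03 for Cct6a with a median of -0.05. Only Cct4 (chr11:22990593-23003336) passed there, going from 1492 ± 81.2 to 1431 ± 43.7 normalised counts (p = 0.0408, permutation p = 0.054), and its call was lost without any 1 of 11 libraries (highest p 0.0973, without saline sham replicate 4). Between the HF-HI groups all 8 also had a negative change with memantine, with a median of -0.04. These 2 comparisons use different libraries. The 8 remained negative in sham under each of the other settings and without any single library, and in HF-HI at least 7 did. The 8 subunits were measured in the same libraries and are not replicates of each other.

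Between the HF-HI groups, memantine against saline, 2 of 58 transcripts passed (3.45%, against 3.91% of all transcripts), and none had an adjusted p under 0.1, as for 0.0% of all transcripts. Both fell. Cct7 (chr6:85451505-85468477) ran from 2499 to 2788 normalised counts in saline HF-HI and from 2383 to 2711 in memantine HF-HI. It fell from 2651 ± 99.7 to 2551 ± 109, a log2 change of -0.06 ± 0.03 (p = 0.046, permutation p = 0.0475). Dnaja2, a cytosolic J-domain partner of HSP70, fell from 3033 ± 129 to 2917 ± 113, a log2 change of -0.06 ± 0.03 (p = 0.0465, permutation p = 0.0486). Each was below the saline HF-HI mean in 8 of 10 libraries. The Cct7 call was lost without any 1 of 12 libraries and the Dnaja2 call without any 1 of 10, with the highest p of each, 0.104 and 0.108, without memantine HF-HI replicate 7.

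Over sham and HF-HI together, memantine against saline gave 6 of 58 transcripts that passed (10.3%, against 8.11% of all transcripts), all lower, where 4.14% of all transcripts were lower. None had an adjusted p under 0.1 (smallest 0.463), against 0.0146% of all transcripts. Dnajc2 had the smallest p-value (-0.11 ± 0.03, p = 0.00273). It was followed by Cct7 (-0.05 ± 0.02, p = 0.00927), Cct4 (-0.05 ± 0.02, p = 0.0165), Dnaja2 (-0.05 ± 0.02, p = 0.0167), Tcp1 (-0.06 ± 0.02, p = 0.0188) and Hspa4 (-0.04 ± 0.02, p = 0.0496). Thus 3 of the 8 CCT transcripts fell. The Hspa4 call was lost in 27 of 40 fits that left out 1 library, with a p of 0.0947 without memantine HF-HI replicate 7, and the other 5 were kept in all 40.

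**Figure D4:**
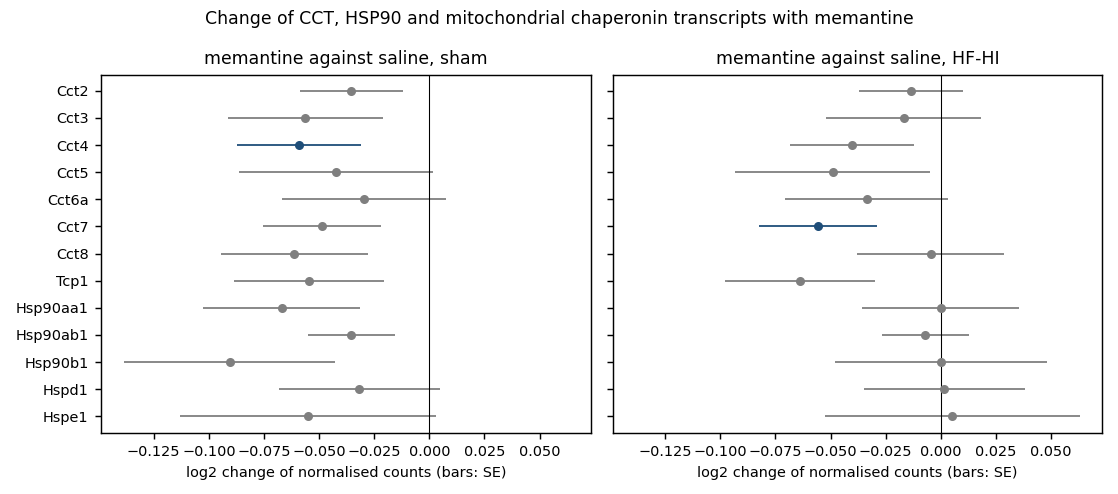
Log2 change of the normalised count with memantine for the 8 CCT subunits, the 3 HSP90 genes and the mitochondrial chaperonin genes Hspd1 and Hspe1, in sham on the left and HF-HI on the right, on the same axis. Points are estimates from 10 libraries per group, bars are SE, and blue marks an unadjusted limma p-value under 0.05 (Cct4 in sham, Cct7 in HF-HI). All 8 CCT points lie below 0 in both panels (at least 7 in HF-HI under the other settings), while the HSP90 points lie below 0 in sham and near 0 in HF-HI.

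The cofactors that serve these chaperones were counted in the same fit. Of 37 genes listed, 26 had 32 transcripts in the table. In saline HF-HI, 3 of 32 passed (9.38%, against 9.53% of all transcripts). Fkbp5, an HSP90 cochaperone that glucocorticoids induce, fell from 1075 ± 192 to 880 ± 101 normalised counts (log2 change -0.28 ± 0.11, p = 0.0186). Ppid, another HSP90 cochaperone, fell by 0.08 ± 0.04, and Sgtb, an HSP70 cofactor, rose by 0.08 ± 0.04. In memantine sham against saline sham 5 of 32 passed (15.6%, against 7.51%), 4 lower and 1 higher. Among the 4, Fkbp5 fell by 0.24 ± 0.11, and St13, the HSP70-binding protein Hip, fell by 0.07 ± 0.03. With impact under memantine 3 of 32 passed (9.38%, against 4.61%). These were Cdc37l1 NM_001302443 (0.23 ± 0.11) and NM_001111066 and NM_001199631 of Fkbp8, an HSP90-binding protein of the mitochondrial surface. Of these Fkbp8 transcripts NM_001111066 rose (0.40 ± 0.15) and NM_001199631 fell (-0.35 ± 0.12), while NM_010223 of the same gene did not pass (-0.02 ± 0.12, p = 0.973). The other Cdc37l1 transcripts did not pass, and NM_025950 had a negative change (-0.21 ± 0.11, p = 0.0653). How far the division of reads between transcripts moved these values was not tested. The interaction passed for 3 of 32 (9.38%, against 3.73%), Fkbp8 NM_001111066 and NM_001199631 and Cdc37l1 NM_025950. Of 11 mitochondrial proteostasis transcripts, 1 rose in saline HF-HI, the protease subunit Spg7 (0.07 ± 0.03, p = 0.045), and 0 passed under memantine. The cold-inducible RNA-binding protein Cirbp had 761 ± 55.7 normalised counts in HF-HI mice on saline and 698 ± 64.3 in those on memantine, and fell (-0.12 ± 0.06, p = 0.0484).

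Hspa5, Canx, Dnajc5 and Dnajc6 had more than 1 transcript in the table, and the split of reads between transcripts was described beside their sum. Dnajc5 (chr2:181518858-181552886) had NM_016775 and NM_001271584, which share a coding sequence of 594 bases. The GENCODE transcripts matched to them have 5 and 6 exons and 3′ ends 2901 bases apart. The GENCODE end matched to NM_016775, at 181555133, lies beyond the RefSeq end given here. The 3′ ends of the counted RefSeq transcripts may thus lie closer together. The share of NM_001271584 ran from 5.01% to 56.9% of the Dnajc5 counts, with no library between 26.6% and 41.0%. Above that gap lay 1 sham and 4 HF-HI libraries under saline, and 3 of each under memantine. NM_001271584 had a mean of 834 ± 616 normalised counts in saline sham and 1465 ± 1072 in saline HF-HI, while the sums were 5040 ± 502 and 5113 ± 179, a difference of 1.93% (95% interval -4.23% to 8.49%). The libraries of every group thus spanned both levels, and the gap was seen after the values had been examined.

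For Dnajc6, whose transcripts differ by 114 bases of coding sequence at their starts, NM_001164585 made up 73.3% ± 5.33 of the counts in saline sham and 76.0% ± 4.19 in saline HF-HI. For Hspa5, NM_001163434 made up 55.9% ± 7.32 and 51.6% ± 5.72. For Canx, NM_007597 made up from 48.1% to 93.9% of the counts over all libraries. The Canx sum was 6683 ± 1139 normalised counts in saline sham and 7161 ± 1503 in saline HF-HI, a difference of 6.34% (95% interval -10.3% to 26.1%). Transcripts of a gene share most of their sequence, so the counting must divide their reads by a model, and how far that division moved these shares was not tested.

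**Figure D5:**
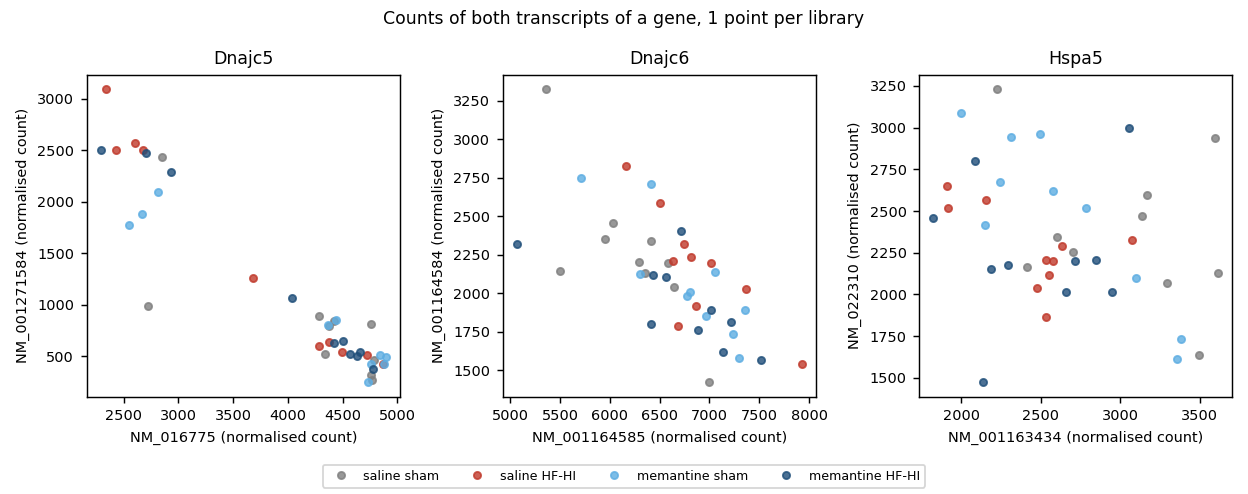
Normalised counts of both transcripts of Dnajc5, Dnajc6 and Hspa5, with 1 point per library coloured by group. Dnajc5 libraries fall into an upper and a lower cluster with no share between 26.6% and 41.0%, and each group has libraries in both. Dnajc6 points fall along a band, and Hspa5 points scatter more widely.

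The covariation of 5 pairs of transcripts between libraries was computed after group means had been removed. Across the 40 libraries, Hspa8 and Hsp90aa1 had Pearson's r of 0.85 and Spearman's rho of 0.79 (permutation p = 1e-05 each, the smallest that 100000 permutations within groups can give, adjusted p = 2e-05 over 5 pairs). Without the 2 libraries farthest from the Hspa8 median, r was 0.82, and within single groups it ran from 0.65 to 0.94. The ER pair Calr and Hsp90b1 had r of 0.73 and rho of 0.63 (permutation p = 1e-05 and 6e-05, adjusted p = 2e-05, r of 0.61 without 2 libraries). Hspd1 and Hspe1, which share a promoter region, had r of 0.65 and rho of 0.66 (permutation p = 4e-05 and 1e-05, adjusted p = 5e-05, r of 0.56 without 2 libraries). The transcript pairs went the other way. The pair in Dnajc6 had r of -0.74 and rho of -0.73 (permutation p = 1e-05 each, adjusted p = 2e-05, r of -0.76 without 2 libraries), and the pair in Hspa5 had r of -0.43 and rho of -0.44 (permutation p = 0.01 and 0.007, adjusted p = 0.01, r of -0.36 without 2 libraries), and within single groups the latter ran from -0.86 to 0.10. These points share a library, its size factor and its dissection. The counts of 2 transcripts of a gene also come from dividing shared reads. Their negative r and its p therefore cannot be told apart from that division. Of the other 57 chaperone transcripts, 19 had r over 0.5 with Hspa8 (33.3%), as did 315 of all 6830 other transcripts (4.61%), and 401 of the latter had r under -0.5.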

How the data were processed

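RNA sequencing of 40 mouse cortex libraries was used. The methods describe stranded paired-end libraries depleted of ribosomal RNA, alignment to mm10 with STAR and counting of RefSeq transcripts with eXpress. The authors then stabilised the variance of the counts with DESeq2, and the deposited values are log2-like. The submitters' processing notes name HISAT2 and StringTie instead, and which tools made the table was not settled. The series text gives 4 samples per group, while the labels list 10, which were used. The deposited log2 values were inverted to normalised counts from their floor at a count of 0 (10.4). Below 5000 counts, each library then held only whole multiples of its own step, to within 0.1 of that step. Size factors ran from 0.859 to 1.14. The lowest mean count was 549, where counting alone gives a CV of 4.27%.

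Transcripts were tested with limma 3.58.1 in R 4.3.3 (trended eBayes, a term per group, 7 contrasts, two-sided) on the deposited values. Calls used an unadjusted p-value under 0.05, and Benjamini-Hochberg adjustment ran over all transcripts (threshold 0.1). Printed log2 changes, SE and 95% intervals came from the same fit on log2(count + 1). Permutation tests were two-sided with 100000 resamples. Alternatives were other scalings, voom on recovered reads, no trend, library weights, a p under 0.01, a mean count of at least 1000, summing by symbol, a replicate block, a striatal covariate, fits on the compared groups alone, leaving out each library, and a residual component added after seeing the data. In simulated saline data with 6831 transcripts, a fold of 1.1 gave an unadjusted p under 0.05 for 50% of 50 changed transcripts, a fold of 1.25 for 88%, and 5.2% of unchanged transcripts passed.

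The members and lists were chosen with earlier results of these data known. Transcripts were named as the 3 smallest p-values per contrast, those with p under 0.05 under saline, and a fixed list of roles. Positions came from RefSeq (mm10), exon structures and lengths from GENCODE (57 of 58 transcripts matched), and promoters from RefSeq (GRCm38.p6). Lists of cortical, astrocyte, microglial, oligodendrocyte, endothelial, choroid plexus and blood markers, clock genes and immediate early genes were also counted.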

Additional observations from a re-analysis of the deposited data

Results flagged for a closer look

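In 22 of 160 sets of 10 libraries (40 named transcripts in 4 groups), 1 library lay farther from the others than Dixon's 95% limit, which chance alone passes in about 1 of 20 sets. Values are normalised counts, with the nearest other library of the same group given after each.

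In memantine sham replicate 9, Bag4 NM_026121 was highest at 2029 (nearest 1886), Hsp90aa1 NM_010480 was highest at 21522 (nearest 19405), Hspa8 NM_031165 was highest at 35225 (nearest 32629) and Hspd1 NM_010477 was highest at 3030 (nearest 2789). In memantine HF-HI replicate 7, Bag6 NM_057171 was highest at 2231 (nearest 1626), Hsp90aa1 NM_010480 was lowest at 17134 (nearest 18811) and Hspa8 NM_031165 was lowest at 28372 (nearest 31682). In saline HF-HI replicate 1, Dnajb1 NM_018808 was lowest at 728.4 (nearest 833.7), Hsp90b1 NM_011631 was highest at 7743 (nearest 6677) and Hspa8 NM_031165 was highest at 35465 (nearest 33652). In saline sham replicate 5, Cct4 NM_009837 was lowest at 1306 (nearest 1459) and Hspa9 NM_010481 was lowest at 3443 (nearest 3821). In saline sham replicate 7, Dnajb6 NM_011847 was lowest at 386.1 (nearest 1396) and Hspa12a NM_175199 was lowest at 3270 (nearest 4612). In memantine HF-HI replicate 4, Dnajb11 NM_001190804 was lowest at 673.2 (nearest 777). In memantine HF-HI replicate 9, Dnajc6 NM_001164585 was lowest at 5071 (nearest 6415). In memantine sham replicate 1, Dnajb6 NM_011847 was lowest at 376.8 (nearest 1336). In memantine sham replicate 5, Hspa12a NM_175199 was lowest at 2485 (nearest 4936). In memantine sham replicate 6, Bag1 NM_009736 was lowest at 616.9 (nearest 980.3). In memantine sham replicate 8, Dnajb9 NM_013760 was lowest at 530.5 (nearest 582.5). In saline sham replicate 1, Canx NM_007597 was highest at 9233 (nearest 5521). In saline sham replicate 10, Dnajc5 NM_001271584 was highest at 2434 (nearest 988.4).

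The interaction of impact and drug passed for Dnajc6 NM_001164585 (unadjusted limma p = 0.0336) and Hspa4 (p = 0.0465), with adjusted p-values of 0.999 for both. These were 2 of 58 transcripts (3.45%), against 3.73% of all transcripts. Of 40 fits that left out 1 library, the Dnajc6 call was lost in 7 and the Hspa4 call in 23.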

How the results depend on the processing

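None of the 29 calls changed direction under any alternative run. Signs of changes that did not pass did flip: between the HF-HI groups 7 or 8 CCT subunits and from 0 to 3 of the 3 HSP90 transcripts were negative across settings and single libraries left out. The 6 chaperone transcripts that passed in saline HF-HI became 3 with only the groups compared, 2 with the striatal covariate and 1 at a p under 0.01. The 2 under memantine became 5 with library weights, 5 with the first residual component, 1 at a mean count of at least 1000 and 0 at p under 0.01. The 2 with memantine in HF-HI became 1 with quantile normalisation, 0 with median centring, 1 with library weights, 0 with only the groups compared, 1 with the striatal covariate, 4 with the residual component and 0 at p under 0.01. The 7 with memantine in sham became 11 with library weights, 13 with the residual component and 1 at p under 0.01. The 2 of the interaction became 1 with quantile normalisation, 1 with the replicate block, 1 with the striatal covariate and 0 at p under 0.01. The 4 of pooled impact became 7 with the residual component, 2 at a mean count of at least 1000 and 0 at p under 0.01, and the 6 of the pooled drug comparison became 2 at p under 0.01. The residual component was chosen after seeing the data. Calls over all 6831 transcripts moved with these settings as well. With memantine in sham, 513 of all transcripts passed, 631 with library weights and 731 with the residual component. With impact under memantine, 315 passed, 513 with library weights and 471 with the residual component. For pooled impact, 660 passed and 883 with the residual component. Leaving out 1 library at a time gave from 3 to 8 under saline, from 1 to 6 under memantine, from 0 to 4 with memantine in HF-HI, from 3 to 14 in sham, from 0 to 3 for the interaction, from 4 to 7 for pooled impact and from 5 to 9 for the pooled drug comparison. Of the 29 calls, 15 were kept in every such fit. With the replicate block 26 of the 29 calls were kept. The replicate numbers did not pair the libraries: 4 of 60 pairs had a correlation over 0.1 (range -0.13 to 0.16), and 6 libraries correlated best with their own number. With the striatal covariate 17 of 29 calls were kept. At a mean count of at least 1000, the calls that went missing were of transcripts under that count. All 23 calls of transcripts above it were kept. The cause of the other changes was not tested. Counting error limits the lowest transcripts, where it alone gives a CV of 4.27%.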

Other observations

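Other gene lists were counted in the same fit (unadjusted limma p under 0.05), where 9.53% of all transcripts passed in saline HF-HI, 4.61% under memantine and 7.51% with memantine in sham. Of 18 circadian clock transcripts, 6 rose and 1 fell in saline HF-HI, and 6 rose and 1 fell with memantine in sham. Of 10 immediate early gene transcripts, 6 rose in saline HF-HI, and 1 fell under memantine. In saline HF-HI, 2 of 13 cortical neuron transcripts rose and 1 fell, 1 of 15 astrocyte, 2 of 6 microglial, 1 of 16 oligodendrocyte and 2 of 4 endothelial transcripts rose. The astrocyte (1 of 15) and oligodendrocyte (1 of 16) counts lie below the share of all transcripts. The 1 choroid plexus transcript ran from 74 to 15798 normalised counts in saline sham libraries and did not pass in any comparison within a drug or impact group, and no blood marker was in the table.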
